A study of Mus musculus with 12 samples.

Results

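The genes described here were 46 genes of DNA replication and nucleotide synthesis, measured by RNA-seq in mouse hair follicle stem cells (HFSCs). They were chosen by name for their function and matched by gene symbol in each of the 2 deposited tables, one of the hair cycle (21915 genes) and one of Eed iKO and control mice (17885 genes). All 46 were found in both tables, and all 46 passed the filter on low values in both. By role they fell into 11 genes of origin licensing, 9 of origin firing, 7 of DNA polymerases and primase, 9 of the sliding clamp, its loader, single strand binding and flap processing, 3 of fork protection, 2 of chromatin assembly and 5 of nucleotide synthesis.

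The study comprised 12 libraries, 3 in each of 4 groups, all from back skin HFSCs of C57BL/6J mice, which were sorted as CD34+ and EpCAM+ cells with high α6-integrin and no Sca1. The anagen group came from wild type mice at postnatal days 28 to 30, when follicles grow, and the telogen group from wild type mice at postnatal days 50 to 52, when follicles rest. Hair cycle stage and age thus differed together between these groups and cannot be told apart. The Eed iKO group came from K15-CrePGR; Eed fl/fl mice, whose Cre recombinase acts in the follicle bulge once RU-486 is applied. These mice received RU-486 (10 mg/ml) on the skin once a day for 7 days, from postnatal day 50 by the study's scheme, and were examined at postnatal day 70. Their controls, of the same age and labelled wild type, received ethanol, the solvent, so drug and genotype differed together between these groups. K15-CrePGR also targets the hair germ beside the CD34+ cells, and the share of sorted cells that had recombined is not given in the labels. The replicates of the Eed iKO table came from at least 2 litters. For the hair cycle libraries the source gives 6 animals, without saying whether in all or at each age. How many animals made up 1 of these libraries is not given in the sources used here, so the p-values measure the spread between libraries.

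In each round of DNA synthesis, the origin recognition complex with Cdc6 and Cdt1 loads the Mcm2-7 helicase onto origins, a step called licensing that geminin (Gmnn) blocks outside its proper time. The Cdc7-Dbf4 kinase then starts the helicase together with Cdc45 and the GINS complex, DNA polymerases copy both strands behind the sliding clamp PCNA, and ribonucleotide reductase with thymidylate synthase supplies the building blocks. Cells that leave the cycle are known to lower many of these transcripts, in large part through the E2F family of transcription factors. HFSCs of the bulge rest through telogen and divide for a short time in early anagen.

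Values are normalized counts, that is counts divided by a size factor of the library. The 2 tables were normalized separately, so levels are compared only within a table, and values of a group are given in the order of replicates 1, 2 and 3. Recovered reads ranged from 33269583 to 57063586 per library in the Eed iKO table, and no depth is known for the hair cycle table. Bulge markers were present in both tables, with Krt15 between 142406 and 422433 in the hair cycle table, and Ly6a, which encodes the Sca1 antigen of the negative gate, reached at most 28.5 there. Between anagen and telogen, Cd34 was lower (log2 fold change -1.21, limma adjusted p = 0.00382) and Itga6 was higher (log2 fold change 0.97, limma adjusted p = 0.0144) in anagen, and both genes are part of the sort gate. No gene of the marker lists passed the test in the Eed iKO table, where 0.0200% of all genes tested were higher and 0.00666% lower. Of the bulge markers, Nfatc1, Tcf7l1 and Lgr5 were lower and Itga6, Krt15 and Lhx2 higher in Eed iKO without overlap between groups. Over all genes tested, 10.0% were lower and 10.2% higher without overlap.

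Eed, the targeted gene, was examined before the members. Its normalized counts were 933, 1361 and 1001 in Eed iKO and 1084, 1249 and 950.2 in control, with a log2 fold change of -0.01 (limma adjusted p = 0.993). The values of both groups overlapped. The count of the gene was thus no lower under the Eed iKO label in this table, and directions given for these libraries follow their labels. It is a count over the whole gene, and reads of its floxed part alone were not examined. The study also examined Eed by RT-qPCR in isolated HFSCs and the H3K27me3 mark by staining in such mice. Those measurements were not analysed here.

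Replication genes were higher in HFSCs in anagen than in telogen. Of the 46 members, 28 rose in anagen at a limma adjusted p under 0.05, 0 fell and 18 were not called. Of all 13457 genes tested, 7.22% rose and 4.35% fell by the same rule. At an unadjusted limma p under 0.05 the members numbered 36 higher and 0 lower, beside 15.1% and 12.2% of all genes tested. With the pseudocount of 1, the largest log2 fold changes were those of Mcm10 (4.90), an initiation factor that helps to activate the helicase, and of Orc1 (4.73), the largest subunit of the origin recognition complex. The 46 log2 fold changes ran from -0.25 to 4.90 with a median of 1.53, and the median of all genes tested was 0.01.

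The 3 anagen libraries lay above the 3 telogen libraries for 35 members and below them for 0 members, where all genes tested gave 18.1% and 15.2%. The log2 fold change was above 0 in 45 of 46 members and in 50.6% of all genes tested. With the fold threshold of the study's methods, a log2 fold change above 2 with a p under 0.05, taken here as unadjusted, 14 members were higher, beside 3.33% of all genes tested. In bulk samples, fewer cells with a transcript and less of it per cell cannot be told apart.

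The number of calls depended on single libraries. It was 16 without anagen replicate 1, 18 without anagen replicate 2 and 30 without telogen replicate 1, and 16 members were called with every library left out in turn. Calls fell over the whole table as well, from 971 of all genes higher in anagen to 385 without anagen replicate 1 and 419 without anagen replicate 2, and were 985 without telogen replicate 1. The 16 members were Orc1, Gmnn, Mcm2, Mcm4, Mcm5, Mcm6, Mcm10, Gins2, Dbf4, Pcna, Lig1, Tipin, Chaf1b, Rrm1, Rrm2 and Tyms, with no polymerase gene among them. The other 12 of the 28, namely Cdc6, Mcm3, Mcm7, Gins1, Cdc7, Pola1, Pole, Rpa2, Fen1, Clspn, Chaf1a and Tk1, lost the call when at least 1 library was left out. Of the members not called, Cdt1, Prim2 and Dut were called without telogen replicate 1, Prim1 and Rpa1 without telogen replicate 2, and Gins4 without telogen replicate 3.

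**Figure D1:**
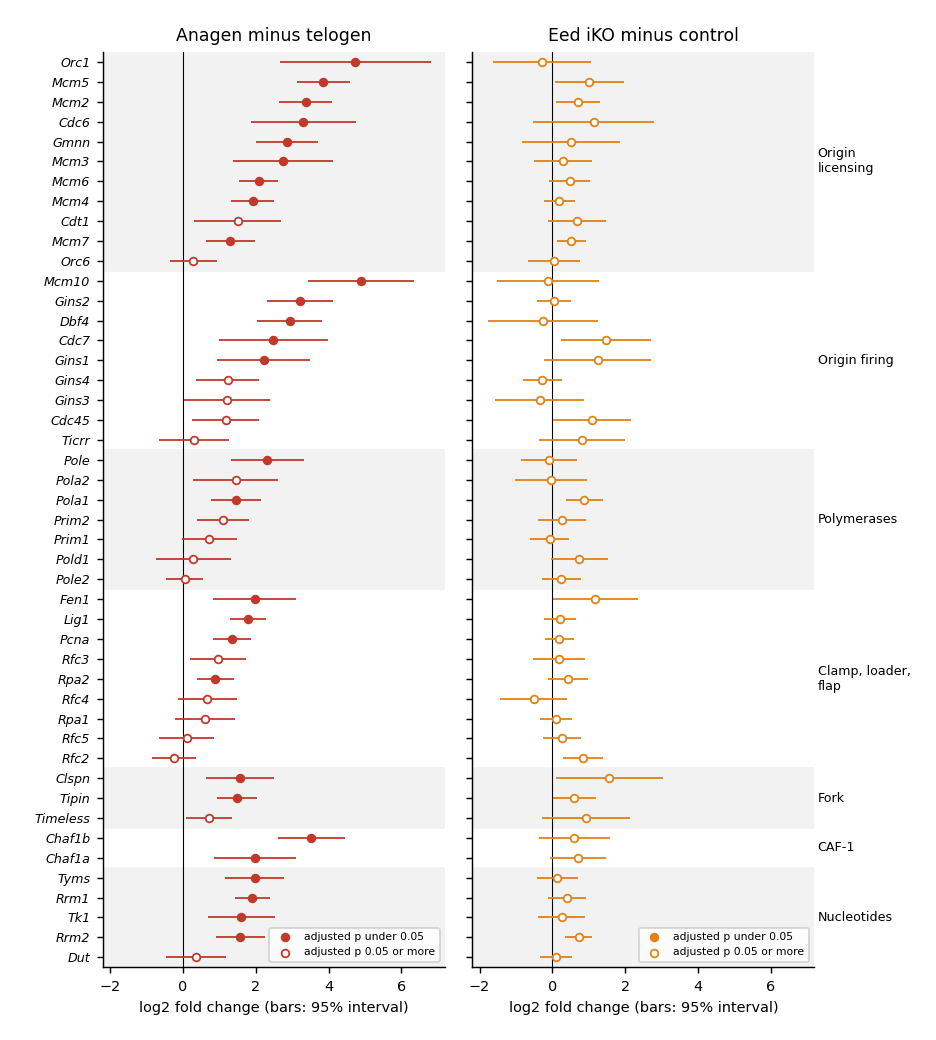
Log2 fold change on the log2(normalized count + 1) scale (horizontal axis) of each of the 46 members (rows, grouped by role and ordered by the hair cycle value), for anagen minus telogen on the left and libraries labelled Eed iKO minus control on the right, 3 libraries a group. Points are limma estimates, bars their 95% intervals, and filled points have an adjusted p under 0.05: 28 points are filled on the left and 0 on the right.

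The promoters of the members were searched for letters that E2F factors are known to bind, because many replication genes are classical E2F targets. RefSeq promoter sequences (GRCm38.p6), each from 250 bases before to 50 bases after the start, were found for 37 of the 46 members. The letters searched on both strands were TTTCCCGC, TTTGGCGC, TTTCGCGC and TTTGCCGC. At least one of them was present in 14 of the 37 members (37.8%), in 2.61% of all 27025 genes with a promoter and in 4.56% of the 10640 such genes tested in the hair cycle. Among the members with a promoter, a match was found in 9 of the 22 that rose in anagen (40.9%) and in 5 of the 15 that were not called (33.3%). The match lay wholly before the RefSeq start in 8 members, and 7 of these are shown here. The member not shown was Rfc3, which was not called and whose match ended 2 bases before the start. The matched letters are in capitals with up to 9 bases on either side, read 5′ to 3′ on the strand of the gene.
Orc1: cggttagtgGCGCGAAAagttttctc
Cdc6: cggtggagaGCGGGAAAtcgcctggg
Mcm5: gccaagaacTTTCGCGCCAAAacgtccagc
Mcm6, distal match: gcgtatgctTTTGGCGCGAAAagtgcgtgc
Mcm6, proximal match: ttggacgggTTTGGCGCgaagtagct
Mcm7: tttcgaaccGCGGGAAAcagggtgtc
Pola1: catcacaggGCGCCAAAtgcactccc
Gins3: gagtgcggcGCGGGAAAgcgagtttg
In genome coordinates of GRCm38.p6 the windows were chr4:108579418-108579443 (plus strand) for Orc1, chr11:98908004-98908029 (plus strand) for Cdc6, chr8:75109347-75109376 (plus strand) for Mcm5, chr1:128359795-128359824 (minus strand) and chr1:128359736-128359761 (minus strand) for Mcm6, chr5:138172032-138172057 (minus strand) for Mcm7, chrX:93632277-93632302 (minus strand) for Pola1 and chr8:95633509-95633534 (plus strand) for Gins3. The windows of Cdc6, Mcm5, Mcm6 and Pola1 overlap no exon of the GENCODE vM21 annotation. Those of Mcm7 and Gins3 lie wholly and that of Orc1 in part within annotated exons. By the gene bounds of that annotation, only the windows of Mcm5, Mcm6 and Pola1 lie wholly before the gene. Those of Cdc6, Mcm7 and Gins3 lie within the gene, and that of Orc1 does in part. In Mcm5 and in the distal match of Mcm6, a pair of overlapping matches on opposite strands gave a run of 12 bases. Gins3 is shown because it carried the same letters as Cdc6 and Mcm7, GCGGGAAA, but was not called. A match describes the letters in the window, and binding of a factor there was not measured.

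Other letters were also searched. Without the first T of each E2F word the share was 62.2% of the 37 members against 18.8% of genes tested in the hair cycle, and every longer match is also counted among these. The CCAAT box, written CCAAT, was present in 56.8% of members and 43.1% of genes tested. The CHR element of late cell cycle genes, written TTTGAA, was present in 16.2% of members and 15.2% of genes tested. The base composition of the promoters was not matched between the sets compared.

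**Figure D2:**
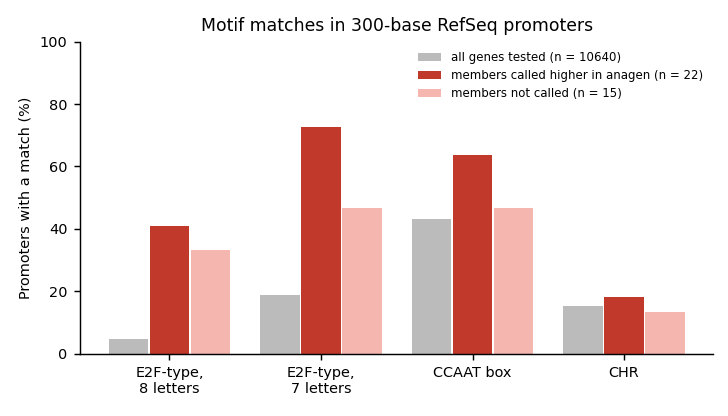
Share of RefSeq promoters of 300 bases with at least one match (vertical axis, percent) for 4 kinds of letters (horizontal axis), for all 10640 genes tested in the hair cycle comparison that have a promoter, the 22 members called higher in anagen and the 15 members not called. The 8-letter E2F words were found in 40.9% and 33.3% of the members and in 4.56% of the genes tested.

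Among the licensing genes, 9 of 11 rose in anagen, with a median log2 fold change of 2.75. All 6 subunits of the Mcm2-7 helicase, the motor that unwinds DNA at the fork, were among them, with log2 fold changes from 1.30 (Mcm7) to 3.86 (Mcm5) and a median of 2.42. Mcm5 (chr8:75109569-75128439 of GRCm38, plus strand) had normalized counts of 1334, 860.1 and 637 in anagen and 60.8, 67.5 and 55.6 in telogen. The lowest anagen library was far above the highest telogen library, and the means were 944 ± 356 (SD, n = 3) in anagen and 61.3 ± 5.96 (SD, n = 3) in telogen (log2 fold change 3.86, standard error 0.33, adjusted p = 6.81e-05). Mcm2 (chr6:88883474-88898780 of GRCm38, minus strand) had normalized counts of 917, 548 and 504 in anagen and 60.2, 57.1 and 63.8 in telogen. The telogen values of Mcm2 differed little from one another, and the groups were far apart (log2 fold change 3.37, standard error 0.33, adjusted p = 0.000135).

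Orc1 (chr4:108579423-108614833 of GRCm38, plus strand) had normalized counts of 109, 164 and 156 in anagen and 21.0, 5.82 and 0 in telogen. It was at most 21.0 in telogen and above 100 in every anagen library (log2 fold change 4.73, standard error 0.95, adjusted p = 0.00949). With telogen replicate 3 at 0, the size of this change depended on the pseudocount, with a log2 fold change of 5.92 at 0.1, above that of Mcm10 (5.08), and of 3.15 at 10, below that of Mcm2 (3.19). It was 3.53 without telogen replicate 3, and Orc1 was called in each of these fits. Orc6, another subunit of the origin recognition complex, had normalized counts of 257, 355 and 332 in anagen and 258, 326 and 198 in telogen. The groups overlapped, and Orc6 was not called (log2 fold change 0.29, limma adjusted p = 0.575).
Cdt1, which brings the helicase to the origin, had normalized counts of 230.4, 150.0 and 109.9 in anagen and 117, 51.2 and 26.7 in telogen. Telogen replicate 1 exceeded anagen replicate 3, and Cdt1 was not called (log2 fold change 1.502, limma adjusted p = 0.103). Its inhibitor Gmnn rose by a log2 fold change of 2.87, and Cdc6, the ATPase that loads the helicase, by 3.30. Mcm3, Mcm4 and Mcm6 rose by log2 fold changes of 2.75, 1.91 and 2.09.

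The subunits of the helicase, which act in equal numbers, were more even in anagen. Per kb of the mean length of their coding transcripts, the normalized count of the highest subunit exceeded that of the lowest by 6.08-fold, 6.89-fold and 5.93-fold in anagen replicates 1, 2 and 3. In telogen replicates 1, 2 and 3 the ratio was 24.5-fold, 18.7-fold and 22.3-fold. The ranges did not overlap. Per kb, Mcm2 was the lowest subunit in all anagen libraries and in telogen replicates 1 and 2. Mcm4 was the highest per kb in all libraries other than telogen replicate 1, where Mcm7 was. The lengths were means over all annotated coding transcripts, 1.56 kb for Mcm4, 1.15 kb for Mcm7 and 3.63 kb for Mcm6. Before division by length, Mcm6 exceeded Mcm4 in every hair cycle library, so the rank of Mcm4 and the size of the ratios depend on these lengths. The ratio is a description, since the length that the counting used can differ from the mean length taken here.

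Among the genes of origin firing, 5 of 9 rose, with a median log2 fold change of 2.22. Mcm10 (chr2:4989714-5012791 of GRCm38, minus strand) had normalized counts of 418, 302 and 79.9 in anagen and 8.26, 4.24 and 7.02 in telogen. It was at most 8.26 in telogen, and its anagen values spread widely (log2 fold change 4.90, standard error 0.66, adjusted p = 0.00105). The log2 fold changes of the other genes called were 3.22 for Gins2 and 2.22 for Gins1, both subunits of the GINS complex, 2.94 for Dbf4, the regulatory subunit of the Cdc7 kinase, and 2.48 for Cdc7 itself. Of the exon bases of Gins2, 67.3% overlap Gse1 on the opposite strand, and whether the counting used strand is not stated, so its value is uncertain.

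The remaining genes of origin firing were not called. Cdc45, which joins the helicase at firing, had normalized counts of 189, 196 and 139 in anagen and 90.2, 108 and 45.7 in telogen (limma adjusted p = 0.0979). Gins3 had normalized counts of 111, 53.8 and 56.7 in anagen and 42.5, 33.7 and 17.9 in telogen, and Gins4 of 697, 424 and 570.4 in anagen and 122, 299 and 355 in telogen (limma adjusted p = 0.174 and 0.0678). In these cases the anagen libraries lay above the telogen libraries without overlap, and the log2 fold changes were 1.17, 1.21 and 1.23. Ticrr, which helps Cdc45 onto the helicase, had normalized counts of 186, 179 and 111 in anagen and 225, 82.7 and 107 in telogen. Its highest library was telogen replicate 1, and its log2 fold change was 0.29 (limma adjusted p = 0.705).

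Of the polymerase genes 2 of 7 were called, with a median log2 fold change of 1.09. Pole, the catalytic subunit of the leading strand polymerase, had normalized counts of 601, 479 and 268 in anagen and 62.3, 59.4 and 163 in telogen. The groups did not overlap (log2 fold change 2.32, standard error 0.46, adjusted p = 0.00871), and without anagen replicate 1 the limma adjusted p was 0.0584. Pola1 (chrX:93304767-93632155 of GRCm38, minus strand), the catalytic subunit of the polymerase that starts each new strand, also rose (log2 fold change 1.45, standard error 0.31, adjusted p = 0.0140). Pole2, the partner subunit of Pole, had normalized counts of 552, 634 and 498 in anagen and 522, 489 and 618 in telogen. Its groups overlapped almost wholly, with a log2 fold change of 0.05 (95% interval -0.46 to 0.55).

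Pola2, the regulatory subunit beside Pola1, had normalized counts of 290.1, 213 and 97.7 in anagen and 64.2, 36.8 and 119.9 in telogen. Telogen replicate 3 exceeded anagen replicate 3, and the limma adjusted p was 0.103. The primase subunit Prim1 had normalized counts of 750.5, 505 and 655 in anagen and 274, 666 and 304 in telogen (limma adjusted p = 0.202), with telogen replicate 2 among the anagen values. The other primase subunit, Prim2, had normalized counts of 502, 342 and 373 in anagen and 223, 127 and 230.3 in telogen, and its groups did not overlap (log2 fold change 1.09, limma adjusted p = 0.0519). Pold1, the catalytic subunit of the lagging strand polymerase, had low normalized counts of 66.1, 55.2 and 41.8 in anagen and 49.6, 48.7 and 34.2 in telogen, and its groups overlapped (log2 fold change 0.29, 95% interval -0.74 to 1.32).

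In the clamp, loader, single strand binding and flap group, 4 of 9 rose, with a median log2 fold change of 0.89. Pcna (chr2:132249162-132253314 of GRCm38, minus strand), the sliding clamp, had normalized counts of 5594, 4947 and 4193 in anagen and 2617, 1935 and 1405 in telogen. All anagen libraries lay above all telogen libraries (log2 fold change 1.34, standard error 0.24, adjusted p = 0.00503). The normalized count of Pcna per kb was the highest among the 46 members in each of the 4 groups. GENCODE names 2 Pcna pseudogenes, whose reads can be hard to tell from its own.

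The clamp loader genes Rfc2 to Rfc5 were not called. Rfc2, the one member with a negative log2 fold change, had normalized counts of 336, 264 and 247 in anagen and 369, 271 and 370.0 in telogen. The groups overlapped (log2 fold change -0.25, 95% interval -0.86 to 0.36). Rfc3 had normalized counts of 197, 182 and 212 in anagen and 86.4, 85.2 and 137 in telogen, Rfc4 of 230.1, 152 and 124 in anagen and 94.97, 114 and 98.7 in telogen, and Rfc5 of 359.9, 254 and 166 in anagen and 198, 213 and 291 in telogen. Rfc3 and Rfc4 did not overlap between groups and Rfc5 did, with log2 fold changes of 0.97, 0.67 and 0.10 and limma adjusted p of 0.101, 0.266 and 0.877.

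Rpa1, the large subunit of the complex that coats single strands, had normalized counts of 793, 589.6 and 580.3 in anagen and 259, 830.1 and 358 in telogen. Telogen replicate 2 was the highest of all 6, and Rpa1 was not called (limma adjusted p = 0.332). Its partner Rpa2 rose (log2 fold change 0.89, standard error 0.24, adjusted p = 0.0343), as did Lig1, the ligase that seals the lagging strand (log2 fold change 1.79, standard error 0.22, adjusted p = 0.000642). Fen1, the flap nuclease, had normalized counts of 261, 219 and 183 in anagen and 128, 45.3 and 28.3 in telogen, without overlap between groups (log2 fold change 1.97, standard error 0.52, adjusted p = 0.0338). It lost the call with most libraries left out in turn, and 84.2% of its exon bases overlap genes of the opposite strand, so its value is uncertain.

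The genes of fork protection, chromatin assembly and nucleotide synthesis followed the same direction, with 2 of 3, 2 of 2 and 4 of 5 members called. Clspn, encoding claspin, a checkpoint mediator that travels with the fork, had normalized counts of 579, 457 and 452 in anagen and 349, 101 and 128 in telogen (log2 fold change 1.57, standard error 0.42, adjusted p = 0.0358). Timeless, which with Tipin steadies the fork, had normalized counts of 421, 338 and 343 in anagen and 286, 188 and 203 in telogen, without overlap, and was not called (log2 fold change 0.72, limma adjusted p = 0.132). Tipin itself rose by a log2 fold change of 1.48.
Chaf1b, a subunit of the CAF-1 complex that places histones on new DNA, had normalized counts of 395, 305 and 332 in anagen and 45.7, 19.1 and 27.2 in telogen (log2 fold change 3.53, standard error 0.42, adjusted p = 0.000457). Its partner Chaf1a had normalized counts of 810.2, 631 and 589 in anagen and 193, 65.7 and 384 in telogen. Telogen values of Chaf1a spread widely without reaching those of anagen (log2 fold change 1.98, standard error 0.51, adjusted p = 0.0312), and 52.5% of its exon bases overlap Ubxn6 on the opposite strand.

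Tyms, thymidylate synthase, had normalized counts of 930.5, 635 and 370.2 in anagen and 149.7, 116 and 206 in telogen. All anagen libraries were above all telogen libraries (log2 fold change 1.97, standard error 0.37, adjusted p = 0.00686). The subunits of ribonucleotide reductase, Rrm1 and Rrm2, rose by log2 fold changes of 1.90 and 1.58, and Tk1, the thymidine kinase of the salvage pathway, by 1.61. Dut, which removes dUTP, had normalized counts of 786, 809 and 784 in anagen and 1249, 489.6 and 386 in telogen. Telogen replicate 1 was the highest of all 6, and Dut was not called (log2 fold change 0.36, limma adjusted p = 0.572).

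**Figure D3:**
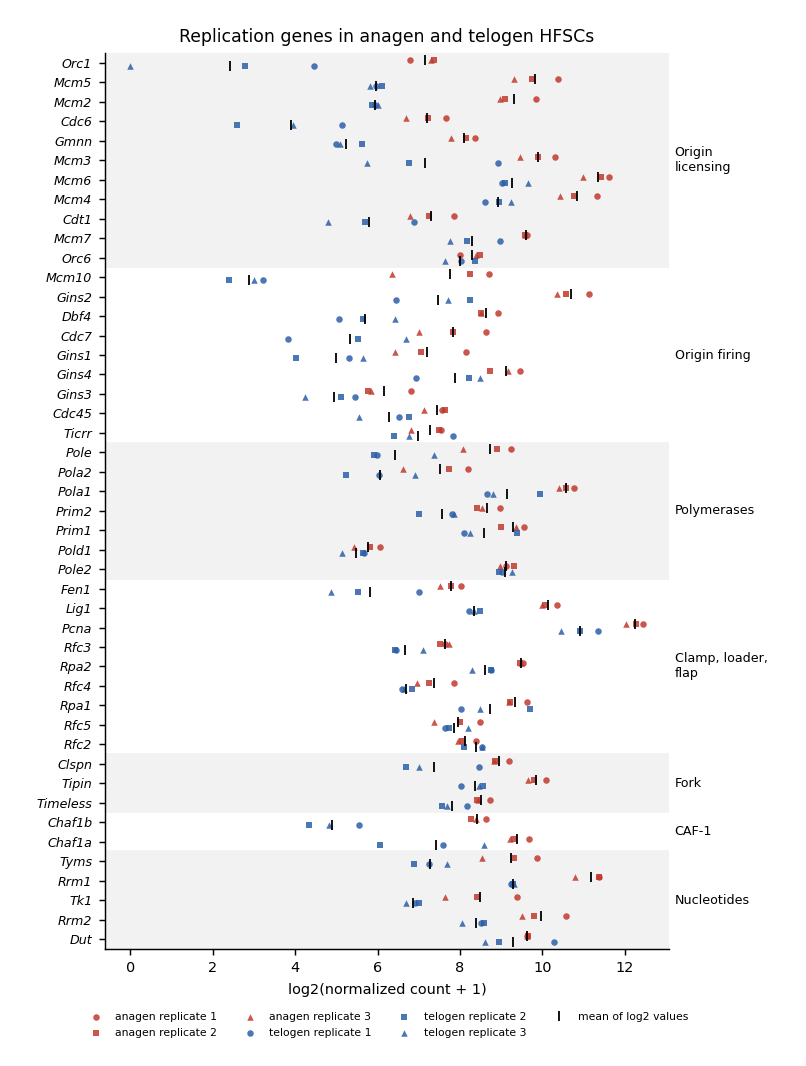
Log2(normalized count + 1) (horizontal axis) of the 46 members (rows, grouped by role) in the 3 anagen libraries (red) and the 3 telogen libraries (blue), with the mean of the log2 values of each group as a black tick. The groups are separate for 35 members, from Orc1, listed at 0 in telogen replicate 3, to Pcna, with at least 4193 in anagen.

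Within anagen, the members also varied together between libraries. Anagen replicate 1 held the highest value for 39 of 46 members, and anagen replicate 3 the lowest for 34. The matching shares over all genes were not counted. Summed over the members, the normalized counts were 0.310%, 0.256% and 0.204% of the library in anagen replicates 1, 2 and 3, and 0.112%, 0.0925% and 0.0965% in telogen replicates 1, 2 and 3. Every anagen library was above every telogen library. Mki67, a marker of cycling cells, went the same way within anagen, with normalized counts of 14954, 12975 and 10404 in anagen and 421, 431 and 276 in telogen (log2 fold change 5.10, standard error 0.23, adjusted p = 1.95e-06). In telogen no library stood out, with the highest value in replicates 1, 2 and 3 for 15, 14 and 17 members.

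Markers of other cells were measured beside these genes. The summed normalized counts of the 5 melanocyte markers were 437 to 803 in anagen and 81.3 to 160 in telogen, with Dct called higher, and those of the 6 immune markers were 82.7 to 117 and 94.5 to 113, with 0 of the 4 genes tested called. Of 5 fibroblast markers, Col1a1 and Dcn were called higher in anagen. Col3a1, which did not pass the filter, was at 6.75 to 48.5 in anagen and 0 to 0.423 in telogen. Col1a2 went the other way without a call, at 154 to 229 in anagen and 233 to 600 in telogen (log2 fold change -0.997). With these opposite directions, the list sums of 456 to 627 in anagen and 299.9 to 647 in telogen overlapped. The 6 markers of matrix progenitors, the dividing cells below the bulge, summed to 549 to 769 in anagen and 891 to 989 in telogen, with Msx2 called lower and 0 called higher. The 5 markers of interfollicular and differentiated epidermis summed to 4275 to 12892 in anagen and 7829 to 15503 in telogen, with 0 called. The 4 endothelial markers summed to 59.8 to 105 in anagen and 67.3 to 134 in telogen, mostly Pecam1 at 56.7 to 102 and 54.9 to 122, while Cdh5 and Cldn5 were at 0 in all 6 libraries. The part of melanocytes and fibroblasts in the values of the members was not tested.

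A further list of 63 replication and nucleotide genes that are no members was tested beside them. In anagen 17 rose and 1 fell, and the median log2 fold change was 0.68. The largest log2 fold changes were those of Uhrf1 (5.36), a reader of hemimethylated DNA, Top2a (4.92), the topoisomerase that untangles sister strands, and Asf1b (4.04), a histone chaperone. Top2a had normalized counts of 9798, 7469 and 4716 in anagen and 349, 132 and 265 in telogen, without overlap between groups. The smallest were those of Tk2 (-2.35), the mitochondrial thymidine kinase, Orc5 (-0.70) and Rrm2b (-0.27), the reductase subunit that acts outside S phase. Tk2 had normalized counts of 34.6, 41.5 and 17.5 in anagen and 219, 162 and 102 in telogen and fell in anagen (limma adjusted p = 0.0126), while Orc5 and Rrm2b were not called (limma adjusted p = 0.253 and 0.574).

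The comparison of Eed iKO and control HFSCs, all from mice aged 70 days, asked how these genes stood in libraries labelled as lacking Eed, a core subunit of the Polycomb complex PRC2, which methylates histone H3. By limma, 0 of 46 members passed an adjusted p under 0.05 in either direction, where 0.0200% of all 15008 genes tested were higher and 0.00666% lower. The largest log2 fold change was that of Clspn (1.57) and the smallest that of Rfc4 (-0.51), with a median of 0.35 over the members and -0.0011 over all genes tested. At an unadjusted limma p under 0.05, 11 members were higher and 0 lower, beside 8.38% and 6.33% of all genes tested. The log2 fold change was above 0 in 37 of 46 members and in 49.9% of all genes tested.

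The libraries labelled Eed iKO lay above the controls without overlap for 8 members and below for 0, where all genes tested gave 10.2% and 10.0%. For this table the study states more than 1 rule. The thresholds of its methods, a log2 fold change above 1.5 with a p under 0.05, taken here as unadjusted, were passed by 1 member, Clspn, and by 0.826% of all genes tested. Elsewhere the study asks for a fold change of at least 1.5, not on the log2 scale, with an adjusted p under 0.05. In limma 0 members passed that rule. On the recovered reads, edgeR called 0 members, with 8 higher at an unadjusted p under 0.05, beside 0.0267% of all genes called higher and 0.00666% lower. DESeq2 on the same reads called 3 members higher (Pola1, Rfc2 and Rrm2) and 0 lower, beside 3.51% of 12665 genes higher and 1.81% lower. The DESeq2 log2 fold changes of these 3 were 0.88, 0.87 and 0.71, each above a fold change of 1.5. With DESeq2 they thus also passed the rule that joins this fold change with an adjusted p. The share of all genes that did so was not counted.

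Rrm2 (chr12:24708241-24714146 of GRCm38, plus strand), the regulated subunit of ribonucleotide reductase, had the smallest p-value of the members. Its normalized counts were 2045, 2178 and 2287 in Eed iKO and 1127, 1426 and 1414 in control. All libraries labelled Eed iKO were above all controls, with means of 2169.9 ± 121 (SD, n = 3) in Eed iKO and 1322 ± 169 (SD, n = 3) in control. The log2 fold change was 0.72 with a standard error of 0.17, and the adjusted p was 0.113 by limma and 0.00914 by DESeq2.

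Pola1 had normalized counts of 1012, 1401 and 1085 in Eed iKO and 643, 519.9 and 738 in control. The groups did not overlap (log2 fold change 0.88, standard error 0.23, adjusted p = 0.137, by limma), and the DESeq2 adjusted p was 0.0148. Rfc2 had normalized counts of 927, 704 and 1104 in Eed iKO and 443, 548 and 509.6 in control. Here too the groups did not overlap (log2 fold change 0.85, standard error 0.25, adjusted p = 0.156, by limma, and a DESeq2 adjusted p of 0.0258).

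Among the licensing genes, log2 fold changes ran from -0.28 (Orc1) to 1.14 (Cdc6), with 10 of 11 above 0. Cdc6 had normalized counts of 198, 119.5 and 129.5 in Eed iKO and 139, 16.2 and 121 in control. Control replicate 2 was far below the other controls, and the groups overlapped. Orc1 had normalized counts of 25.8, 51.8 and 37.6 in Eed iKO and 41.6, 58.5 and 37.2 in control, also with overlap. Mcm2 had normalized counts of 651, 717 and 456 in Eed iKO and 358, 333 and 414 in control, without overlap (log2 fold change 0.70, standard error 0.28, adjusted p = 0.276, by limma).

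The Mcm2-7 subunits had log2 fold changes from 0.20 to 1.02, all above 0 and none called, and Eed iKO replicate 3 was the lowest of its group for all 6. The ratio of the highest to the lowest subunit per kb was 14.4-fold, 23.3-fold and 19.4-fold in control replicates 1, 2 and 3. In the libraries labelled Eed iKO it was 11.5-fold, 7.60-fold and 12.3-fold, below the controls in each. Mcm4 was the highest subunit per kb in all 6 libraries, a rank that depends on the same mean lengths.

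Among the genes of origin firing, 5 of 9 had a log2 fold change above 0. Cdc7 had the largest of them, with normalized counts of 163, 147 and 108 in Eed iKO and 24.3, 62.8 and 76.2 in control. The groups did not overlap (log2 fold change 1.47, standard error 0.56, adjusted p = 0.261, by limma). Gins3 had the smallest, with normalized counts of 229, 91.6 and 57.3 in Eed iKO and 178, 123 and 113 in control, and Eed iKO replicate 1 was the highest and replicate 3 the lowest of all 6 (log2 fold change -0.35).

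Apart from Pola1, the polymerase genes had log2 fold changes from -0.09 (Pole) to 0.75 (Pold1). Pole had normalized counts of 544, 344 and 274 in Eed iKO and 337, 550.3 and 331 in control, and its groups overlapped. In the clamp group, Fen1 had the largest log2 fold change (1.18, limma adjusted p = 0.328), with normalized counts of 344, 353 and 185 in Eed iKO and 140.1, 229 and 58.9 in control. Its groups overlapped, since control replicate 2 exceeded Eed iKO replicate 3. Rfc4 had the smallest, with normalized counts of 409.7, 323 and 144 in Eed iKO and 486, 373 and 308 in control, with Eed iKO replicate 3 the lowest of all 6 (log2 fold change -0.51).
Pcna had normalized counts of 4573, 5633 and 5634 in Eed iKO and 4503, 3736 and 5739.5 in control. Control replicate 3 was the highest of all 6, and the log2 fold change was 0.20 (95% interval -0.20 to 0.59).

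Clspn had normalized counts of 291, 194 and 119.6 in Eed iKO and 25.7, 161 and 59.8 in control. Control replicate 2 lay among the libraries labelled Eed iKO, and the standard error was wide (log2 fold change 1.57, standard error 0.66, adjusted p = 0.307, by limma). Tipin, the smallest of the fork protection genes, had normalized counts of 996, 606 and 774 in Eed iKO and 615, 413 and 524 in control (log2 fold change 0.60, limma adjusted p = 0.335). The subunits of CAF-1 had normalized counts of 605, 417 and 546 in Eed iKO and 199, 340.1 and 462 in control for Chaf1a and 219, 269.6 and 213 in Eed iKO and 181, 233 and 85.2 in control for Chaf1b. Both overlapped between groups, with log2 fold changes of 0.71 and 0.60. Dut, the smallest of the nucleotide genes, had normalized counts of 1697, 1410.3 and 1829 in Eed iKO and 1896, 1394 and 1320.2 in control (log2 fold change 0.11).

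**Figure D4:**
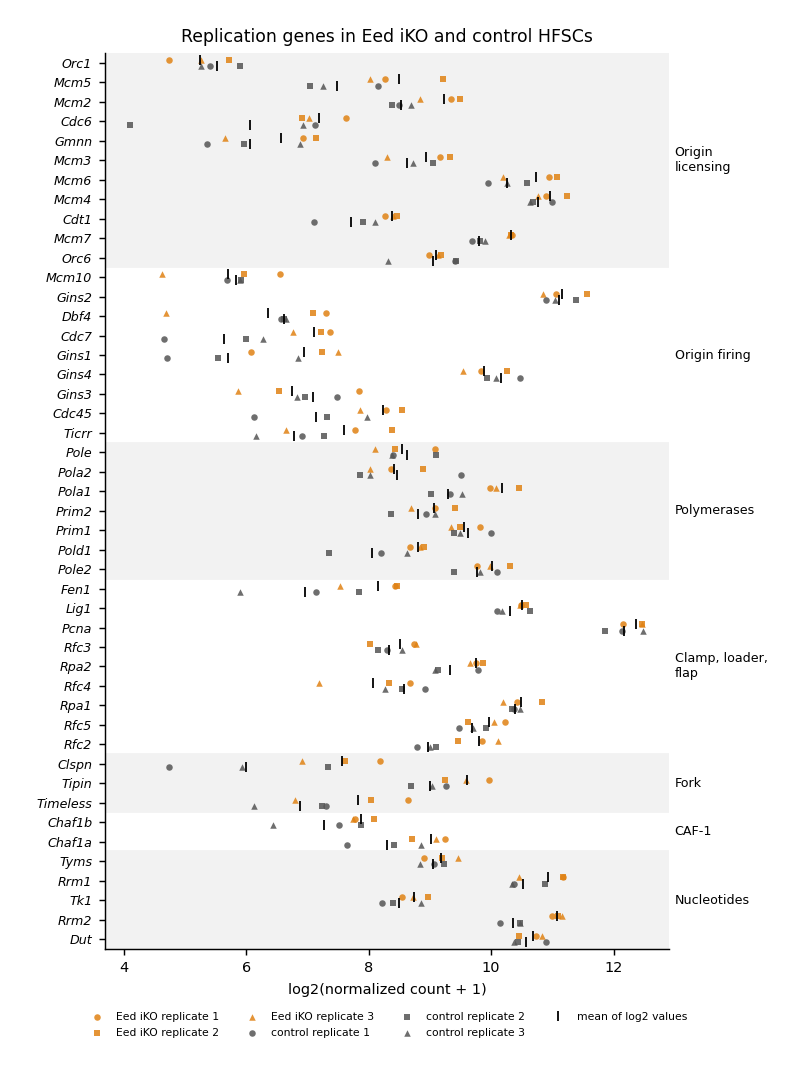
Log2(normalized count + 1) (horizontal axis) of the 46 members (rows, in the same order as for the hair cycle) in the 3 libraries labelled Eed iKO (orange) and the 3 control libraries (grey), with the mean of the log2 values of each group as a black tick. The groups overlap for 38 members, and the triangles of Eed iKO replicate 3 are the lowest of their group for 28.

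Eed iKO replicate 3 stood apart from the other libraries of its group in these genes. It was the lowest of the 3 for 28 of 46 members and for 39 of the 63 other replication genes. The matching share over all genes was not counted. The mean of log2(normalized count + 1) over the members was 9.03, 9.06 and 8.62 in Eed iKO replicates 1, 2 and 3, and 8.434, 8.497 and 8.491 in control replicates 1, 2 and 3. All 3 were above the controls, and the summed normalized counts of the members were 0.0908%, 0.0929% and 0.0836% of the library, beside 0.0772%, 0.0770% and 0.0734% in control. Mki67 had normalized counts of 6125, 6301 and 609 in Eed iKO and 639, 2543 and 928 in control, so that Eed iKO replicate 3 was below all controls (limma log2 fold change 1.32, adjusted p = 0.462).

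Without Eed iKO replicate 3, 0 members were called, 42 of 46 log2 fold changes were above 0, their median was 0.56, and Mki67 was called higher (log2 fold change 2.44, limma adjusted p = 0.0307). Of all 15386 genes then tested, 154 were called higher and 34 lower, where 3 and 1 were called with every library, and their median log2 fold change was -0.0045. Eed iKO replicate 3 was singled out for its low values of Mki67 and the members, so higher values without it follow from that choice. The fit without it is therefore no test of either. With each of the 6 libraries left out in turn the median of the members lay between 0.30 and 0.56. The summed markers overlapped between groups for the immune list (195 to 559 in Eed iKO, 147 to 344 in control), the melanocyte list (327 to 536 and 279 to 503) and the fibroblast list (1216 to 1869.5 and 1589 to 3239.7). Of the immune markers, Cd207, Lyz2 and Tyrobp were at 0 in all controls. The matrix list summed to 5392 to 6362 in Eed iKO and 7165 to 9638 in control, without overlap and with 0 of 6 genes called, and the epidermal list to 6384 to 62960.2 and 8978 to 43409. The endothelial genes in this table, Pecam1 and Kdr, summed to 332 to 652 in Eed iKO and 416 to 627 in control. The part of such cells in the values of the members was not tested.
Shorter transcripts had somewhat higher log2 fold changes in this table, with Spearman's rho of -0.21 over 14950 genes tested with a length, which are not independent. Over the members rho was 0.18, and in the hair cycle table it was -0.0036 over 13428 genes and 0.18 over the members. The median length was 1.87 kb for the members and 2.31 kb for the genes tested in the Eed iKO table.

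**Figure D5:**
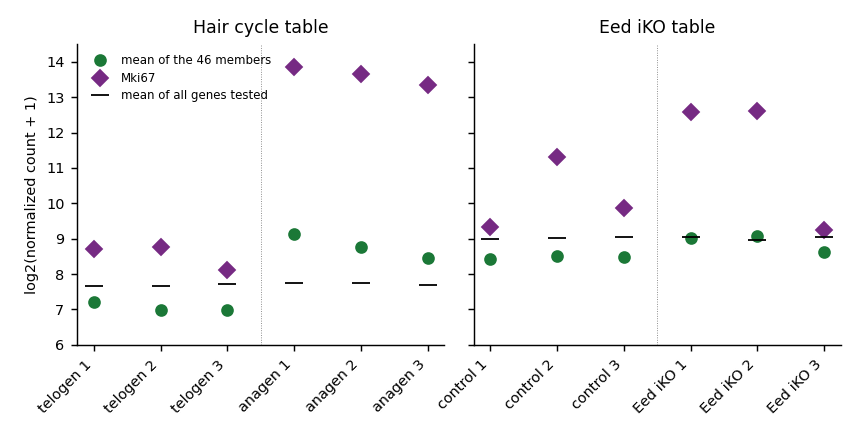
Mean of log2(normalized count + 1) over the 46 members (green circles), over all genes tested (black dashes) and the value of Mki67 (purple diamonds) in each of the 12 libraries (horizontal axis), the hair cycle table on the left and the Eed iKO table on the right; levels compare only within a table. The member mean is 8.47 to 9.13 in anagen and 6.97 to 7.201 in telogen, and 8.62 to 9.06 in Eed iKO and 8.43 to 8.497 in control.

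In the list of 63 other replication genes, 0 passed the limma test in the Eed iKO table, with 12 higher and 2 lower at an unadjusted p under 0.05 and a median log2 fold change of 0.19. By DESeq2 on the recovered reads 5 were called higher, and by edgeR 0. Uhrf1, the gene of this list that rose most in anagen, had a log2 fold change of 1.47 (limma adjusted p = 0.256).

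Side by side, the estimated log2 fold changes of the 2 comparisons had little correlation over the members. The log2 fold change was above 0 in both for 36 of 46 members. Across the 46 genes, which are not independent, Pearson's r of the log2 fold changes was 0.01 and Spearman's rho 0.07, with no library shared between the tables. Standard errors in the Eed iKO table ran from 0.17 (Rrm2) to 0.75 (Cdc6), beside a median log2 fold change of 0.35. Whether the true orders differ therefore cannot be told from these values. The 28 members called in the hair cycle had a median log2 fold change of 0.49 in the Eed iKO table, with 24 above 0. The 18 members not called had a median of 0.21, with 13 above 0. Over all genes, the matching medians, the share above 0 in both comparisons and the correlation were not computed. Mcm10, Orc1 and Dbf4, with log2 fold changes of 4.90, 4.73 and 2.94 in anagen, had -0.13, -0.28 and -0.25 in the Eed iKO table. Rfc2, the one member with a negative value in anagen, had 0.85 there. Whether the effect on a member differed between the comparisons was not tested, because the tables were normalized separately.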

How the data were processed

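RNA-seq of sorted mouse HFSCs (12 libraries, 4 groups of 3) was analysed from the deposited tables. The authors aligned reads to Gencode vM20 transcripts (mm10) with Kallisto (version 0.42.5 per the submitters' processing notes) and compared protein-coding genes with DESeq2. Each deposited value is a signal, the count of a gene scaled by the size factor that DESeq2 gave its library. Columns with the authors' own fold changes and p-values were not used. The planned test allowed for whole counts, but the tables hold normalized values, so limma (3.58.1, R 4.3.3, intensity trend) was fitted on log2(value + 1), a scale that understates changes of low genes. Genes passed filterByExpr of edgeR (4.0.16) at a count minimum of 10, and p-values were adjusted by Benjamini-Hochberg over 13457 (hair cycle) or 15008 (Eed iKO) genes. Each table was fitted alone, two-sided, with no covariate. Intervals are 95% limma intervals.

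All deposited Eed iKO values (100%) were whole reads, within 0.1 read, of each library, so edgeR and DESeq2 (1.42.0) were run on these recovered reads. Depth in the hair cycle table is unknown. Groups and replicate numbers came from the labels.

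The members, the 63 other replication genes, the marker lists and the tests were chosen with earlier results of these data known. Every library's value is given for the largest and smallest log2 fold change of each role, members not called in the hair cycle, the 3 smallest p-values of the Eed iKO comparison, Mcm2 and Pcna, and Eed and Mki67 beside them. Coordinates, lengths and exon overlaps are from GENCODE vM21 (GRCm38), promoters from RefSeq (GRCm38.p6). Fitting functions were tested on simulated data. Alternatives were other pseudocounts, no filter, TMM scaling, no intensity trend, a replicate block, leaving out each library, the thresholds of the methods, and edgeR and DESeq2.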

Additional observations from a re-analysis of the deposited data

How the results depend on the processing

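The count of 28 members higher in anagen was 17 without an intensity trend and 14 at the thresholds of the methods. It was 16 to 30 with each library left out in turn. Over all genes tested the count of 971 higher in anagen became 509, 448 and 385 to 1011 in the same fits. For the 63 other replication genes the count of 17 became 11, 8 and 9 to 21. In the Eed iKO comparison the count of 0 members became 1 at the thresholds of the methods and 3 with DESeq2, and that of the other replication genes 5 with DESeq2 and 0 to 1 with each library left out. With the replicate block, 1 member (Rrm2, limma adjusted p = 0.0416) and 3 other replication genes were called in the Eed iKO table, where 301 of all genes were called higher and 123 lower, and 27 members in the hair cycle table. Deviations from the group means correlated between libraries of the same number at 0.039, 0.068 and 0.193 for replicates 1, 2 and 3 of the Eed iKO table. In the hair cycle table they correlated at -0.035, -0.071 and -0.029. The main fit did not take the numbers as pairs. The labels do not say whether libraries of the same number share a litter or batch, so pairing in the Eed iKO table is not settled. Log2 fold changes near 0 changed sign. With each library left out they ranged from -0.03 to 0.32 (Eed), -0.0071 to 0.71 (Ticrr), -0.044 to 0.14 (Pole2) and -0.17 to 0.39 (Rfc5) in the hair cycle, and from -0.17 to 0.10 (Eed), -0.89 to 0.10 (Gins3) and -0.36 to 0.15 (Pole) in the Eed iKO table, where Eed was 0.0049 with edgeR and 0.0025 with DESeq2. Single genes were followed for a chosen set, which leaves out some members and includes genes that are no members. Apart from changes of sign, 655 values of this set under an alternative kept direction and side of the threshold. A further 18 kept direction and lost the call, and 11 gained it. Members outside the set, such as Mcm3, Mcm7 and Rpa2 in the hair cycle, also lost calls and are not among the 18. The cause of these differences was not tested. With 3 libraries a group and unknown depth in the hair cycle table, a member that was not called is not shown to be level.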
